A study of Gallus gallus with 14 samples.

Results

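Transcripts of the embryonic chicken gonad were compared between embryonic day 14 (E14G) and embryonic day 11 (E11G). The members are the 20316 transcripts, of 42501 in the table of the series, that were listed at 1 FPKM or more in at least 1 of the 4 gonad RNA-seq libraries. FPKM is the number of sequenced fragments scaled by the length of the transcript and the size of the library. The highest of the 4 values lay within 0.05 FPKM above the limit in 269 members and within 0.05 FPKM below it in 280 transcripts left out. Each stage has 2 libraries of total RNA from JA57 broiler embryos, and the labels give male gonads for all 4. The study's methods name pools of left-side gonads, whose RNA was prepared with a stranded kit that does not select for poly(A) tails. A further 2 libraries of blastodermal cells (BC), the cells of the freshly laid egg, entered the fit, where they bear on the estimate of the spread and on which transcripts were tested, but not the comparison itself. Both stages share breed, sex by label and processing, so embryonic day is the labelled difference. E11 lies before and E14 after the time at which the study places the formation of spermatogonia.

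The embryonic testis is built from a few lineages. Sertoli cells enclose the germ cells in cords and secrete anti-Müllerian hormone, while steroid-producing interstitial cells, peritubular cells, vessels, nerves and blood cells lie between the cords. In the male chicken the germ cells stay mitotic or arrested through this period and do not enter meiosis, and the cortex, a thick surface layer in the left gonad of the female, regresses. A bulk library mixes all of these cells. A lower FPKM can therefore come from fewer cells of a type or from less RNA per cell, and the 2 cannot be told apart here.

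Among the members were 5 of 5 Sertoli cell, 3 of 3 germ cell and 4 of 4 matched Leydig cell markers. All were at 1 FPKM or more in all 4 libraries except SOX8, at 0.877 FPKM in E11G replicate 2. Of the ovary markers, WNT4 was at 4.52 to 8.6 FPKM in all 4 libraries and RSPO1 below 1 FPKM. CYP19A1 and FOXL2 were members through E11G replicate 1 only. The table holds no read counts, so the absolute depth is unknown. From the most frequent ratio between low values, which held only 1.47 to 3.49% of the ratios, depth relative to E11G replicate 1 was about 0.936 in E14G replicate 1, 1.72 in E14G replicate 2 and 1.16 in E11G replicate 2. Between replicates the median absolute difference on the log2(FPKM + 1) scale was 0.14 in E14G and 0.14 in E11G. E11G replicate 1, labelled E11 male gonads, also held RNA that the other 3 lacked. Of 25 members that the file places on chromosome W, the female-specific chromosome, or its scaffolds, 14 were at 1 FPKM or more in E11G replicate 1 and below 0.2 of that level in each other gonad library. Their summed level was 0 and 0.0174 FPKM in E14G, against 38.7 and 0.0473 FPKM in E11G. CYP19A1, the aromatase that makes estrogen in the ovary, had 0.0165 and 0.0188 FPKM in E14G, against 116 and 0.0137 FPKM in E11G. Throughout, the values of a stage are given for replicate 1 and then replicate 2. Every change was therefore also set against E11G replicate 2 alone.

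**Figure D1:**
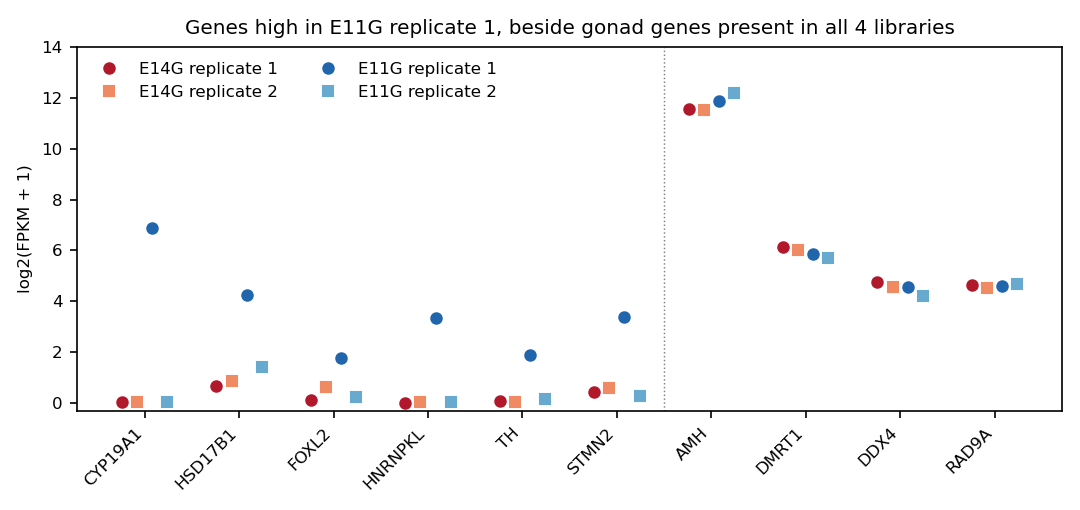
Level of 10 genes in the 4 gonad libraries, as log2(FPKM + 1), with E14G in red and orange and E11G in shades of blue. The 6 genes left of the dotted line stood high in E11G replicate 1 only, with CYP19A1 at 116 FPKM there and at 0.0188 FPKM or less in the other libraries, while the 4 on the right had like levels in all 4.

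The other genes that stood apart in this library were of several kinds. FOXL2, the transcription factor of the ovary's supporting cells, was at 0.0869 and 0.554 FPKM in E14G, against 2.45 and 0.188 FPKM in E11G. HSD17B1, an enzyme of estrogen synthesis, was at 0.606 and 0.797 FPKM in E14G, against 18 and 1.68 FPKM in E11G. HNRNPKL, on chromosome W, was at 0 and 0.0174 FPKM in E14G, against 9.02 and 0.0254 FPKM in E11G. Genes of catecholamine-producing or nerve cells also stood high there, and TH was the only defining adrenal marker that could be matched. TH, the rate-limiting enzyme of catecholamine synthesis, was at 0.0695 and 0.0255 FPKM in E14G, against 2.68 and 0.111 FPKM in E11G. STMN2, a tubulin-binding protein of neurons, was at 0.342 and 0.516 FPKM in E14G, against 9.45 and 0.201 FPKM in E11G. Apart from CYP19A1 and FOXL2, these genes were chosen after their values were seen. E11G replicate 2 lay near the E14G libraries in these genes except HSD17B1, for which the change against E11G replicate 2 alone was -0.66. The part of this RNA in any result was not tested beyond the comparison with E11G replicate 2 alone.

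The remaining 11 members on chromosome W scaffolds or chromosome W were present in every gonad library. The file places 9 of them on scaffolds, against 2 of the 14 above. Whether they are truly W-linked was not tested, so their levels are not read as RNA of a female chromosome. Their summed level was 243 and 256 FPKM in E14G, against 243 and 226 FPKM in E11G. RAD9A, a DNA damage checkpoint protein, was at 24.1 and 21.7 FPKM in E14G, against 23.2 and 24.9 FPKM in E11G. The other 2 most abundant members placed there, both Ensembl transcripts that the files pair with no gene name, were likewise at similar levels in all 4 libraries, and all 3 sit on a single unordered scaffold. None of the 25 members on chromosome W passed the test of the stages in limma.

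At E14, 847 of the 20316 members (4.17%) differed from E11 with an adjusted p under 0.05 in limma, and these are the transcripts called changed. They comprised 339 that rose (1.67%) and 508 that fell (2.5%). The model used log2(FPKM + 1) of all 6 libraries, 22368 transcripts and Benjamini-Hochberg adjustment over all of them, and every change below is on that scale, which understates the change of low genes. All 847 had stages that did not overlap, and so all lay on the same side of E11G replicate 2. For a called gene such separation is therefore description and no further evidence beyond the call. The same holds for close replicates of a called gene, since the call depends on the spread between replicates. When E14G was set against E11G replicate 2 alone, 729 of them still differed by at least 1.5-fold on the FPKM + 1 scale, 267 higher and 462 lower in E14G. The median change of the calls was 0.78 for those that rose and -0.87 for those that fell, while the median over all members was 0.02. Without regard to the test, both E14G libraries lay above both E11G libraries in 5943 members (29.3%) and below in 5022 (24.7%). An unadjusted p under 0.05 was reached by 13.4% of members in the upward and 11.8% in the downward direction.

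The count of calls depended on the 2 BC libraries and on single gonad libraries. Genes listed at 0 in both BC libraries, such as MYOZ2, HBBR and CATH2, entered the estimate of the spread with no difference between these libraries. Their p-values therefore do not rest on the spread between gonad replicates alone. With the 4 gonad libraries only, 2 members passed, MIR6559 and MIR6592, although 4155 still had an unadjusted p under 0.05. Without E11G replicate 1, 65 passed, 9 higher (0.0443%) and 56 lower (0.276%) in E14G, and 34 of them were among the 847. Without E11G replicate 2, E14G replicate 1 or E14G replicate 2, 224, 274 and 22 passed. An exact permutation test of 2 libraries against 2 cannot go below a two-sided p of 0.333. The p-values measure only the spread between these samples, since nothing shows that the libraries of a stage came from separate collections. In all, 4 members kept their call whichever single gonad library was left out, and all fell. They were NANOG, MIR6559 and 2 Ensembl transcripts without a gene name, the latter 2 at 3.2 to 6.5 FPKM in E11G. All but NANOG were listed at 0 in both E14G libraries, which leaves no spread between these libraries.

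**Figure D2:**
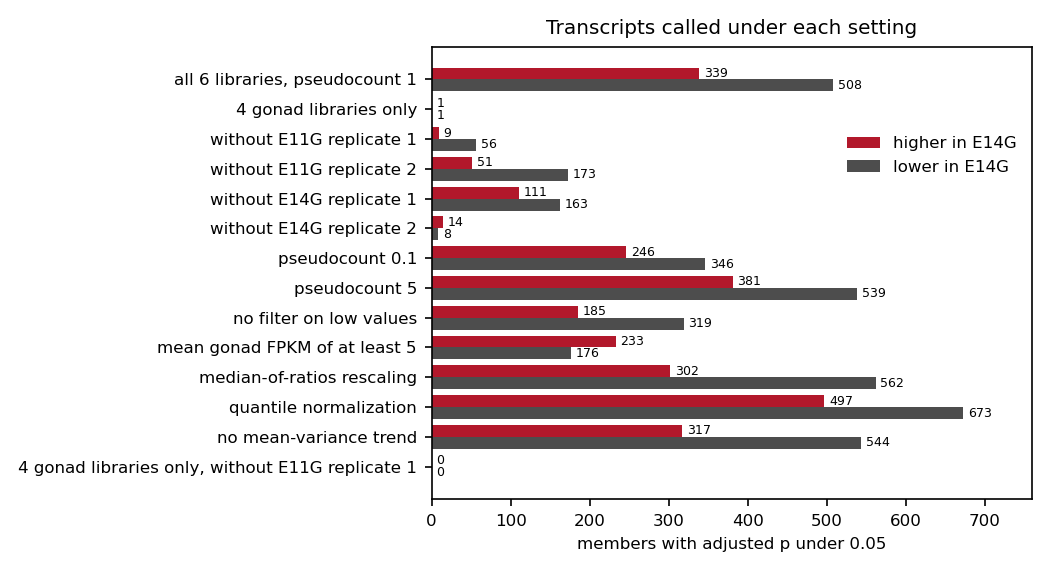
Number of members with an adjusted p under 0.05, split into those higher in E14G (red) and those lower (grey), for the fit of all 6 libraries and for 13 other settings. The fit of all 6 libraries gave 339 higher and 508 lower, and the 4 gonad libraries alone gave 1 and 1.

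Of the 847 calls, 242 belonged to the 4930 genes that carry a symbol, counted with the most abundant transcript of each. Of these genes 2.58% rose and 2.33% fell, and 195 of the 242 calls held at 1.5-fold against E11G replicate 2 alone. Those shares of rises and falls are the background for the called counts of every list below. The genes named below were picked from them by size or by membership in lists of cell types and pathways. The 12 largest rises and 12 largest falls all had an unadjusted p under 0.05 in limma also with the 4 gonad libraries only, as did 4155 of all 20316 members. This is no further evidence, since these genes were picked for large called changes in the same libraries. With single libraries left out in the order E11G replicate 1, E11G replicate 2, E14G replicate 1 and E14G replicate 2, the calls that remained were 3, 3, 6 and 1 of the 12 rises. Of the 12 falls, 5, 8, 8 and 2 remained in the same order.

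The 12 largest rises included 3 peptides that neurons and endocrine cells release. GRP, gastrin-releasing peptide, on chromosome Z at 912006 to 916671 of galGal5, had 41.7 and 53.9 FPKM in E14G, against 5.18 and 1.78 FPKM in E11G. The lower E14G library was far above the higher E11G library, and the change was 3.55 ± 0.38 (SE, adjusted p = 0.0226). CCK, cholecystokinin, had 26.3 and 24.4 FPKM in E14G, against 2.46 and 4.92 FPKM in E11G (2.54 ± 0.25, adjusted p = 0.0195). NPY, neuropeptide Y, had 16.9 and 19.7 FPKM in E14G, against 6.07 and 4.16 FPKM in E11G (1.67 ± 0.21, adjusted p = 0.0265). All 3 peptides were separated between the stages in every pair of libraries. GRP and CCK kept their call without E11G replicate 1 (adjusted p = 0.028 and 0.0226) and lost it without E14G replicate 1 or without E14G replicate 2, while NPY lost it whichever library was left out.

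The other large rises covered secreted factors and a collagen. COL20A1, a fibril-associated collagen, had 5.57 and 8.38 FPKM in E14G, against 0.601 and 0.401 FPKM in E11G (2.39 ± 0.19). RSPO3, which enhances Wnt signalling, had 23.6 and 22.7 FPKM in E14G, against 6.81 and 7.91 FPKM in E11G (1.53 ± 0.09). NDP, which encodes norrin, a ligand of the receptor FZD4, had 32.2 and 31.2 FPKM in E14G, against 10.6 and 11.2 FPKM in E11G (1.45 ± 0.12). These 3 had an adjusted p of 0.0149 each. TM6SF1, a membrane protein, rose by 1.44 ± 0.12 and CATH2, an antimicrobial cathelicidin, by 1.36 ± 0.22. Neither E14G library overlapped E11G in any of the 5, and RSPO3 was the only one of them called without E11G replicate 1 (adjusted p = 0.0428).

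Among miRNA hairpin genes, 3 were at the extremes of the table. MIR6592, on chromosome 19 at 3182035 to 3182145, had 22.7 and 21.9 FPKM in E14G and was listed at 0 in both E11G libraries. MIR6664 had 19.9 and 9.72 FPKM in E14G and was listed at 0 in both E11G libraries. The opposite held for MIR6559, on chromosome 1 at 133113084 to 133113193, which was listed at 0 in both E14G libraries, against 35.8 and 33.7 FPKM in E11G. No fold is given for them, since the table has no counts behind a 0, and for transcripts as short as a hairpin FPKM is an unstable measure. Hairpins picked after their values were seen differed as widely between replicates of 1 stage. MIR3528 had 117 and 0 FPKM and MIR1456 15.5 and 0 FPKM in E11G, and both were listed at 0 in E14G. E11G replicate 1 is also the library that held RNA the others lacked.

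**Figure D3:**
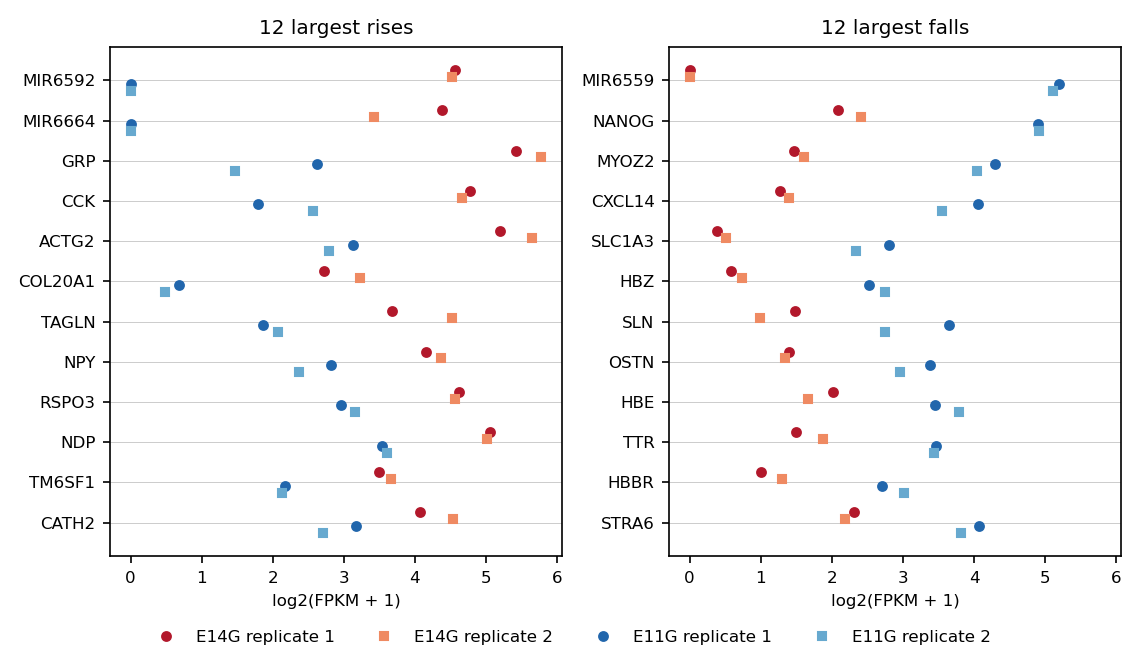
The 12 genes with the largest rises (left) and the 12 with the largest falls (right) among called genes with a symbol, as log2(FPKM + 1) in each library, E14G in red and E11G in blue. In all 24 genes both E14G libraries lay on 1 side of both E11G libraries, with MIR6592, MIR6664 and MIR6559 at 0 in the lower stage.

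Of 15 germ cell genes among the members, 4 fell, NANOG, POU5F3, GFRA1 and SALL4. NANOG, a core pluripotency factor that chicken germ cells retain, on chromosome 1 at 75915830 to 75918614, had 3.24 and 4.33 FPKM in E14G, against 28.7 and 29.2 FPKM in E11G. The change was -2.66 ± 0.13 (adjusted p = 0.0115), and it was called without any single gonad library. POU5F3, the chicken counterpart of mammalian OCT4, had 33.7 and 31.1 FPKM in E14G, against 74.5 and 78.9 FPKM in E11G (-1.22 ± 0.07, adjusted p = 0.0149). GFRA1, the GDNF co-receptor found on spermatogonial stem cells in mice, had 14.9 and 13.2 FPKM in E14G, against 38.8 and 39 FPKM in E11G (-1.41 ± 0.10, adjusted p = 0.0149). SALL4, a zinc finger factor of germ cells and early embryos, fell by 0.59 ± 0.07 (adjusted p = 0.024), which is under 1.5-fold against E11G replicate 2. Outside this list, the DNA methyltransferase DNMT3B had 11 and 11.4 FPKM in E14G, against 34.7 and 38.8 FPKM in E11G (-1.63 ± 0.08, adjusted p = 0.0115). SOX3, a relative of SOX2 named after its values were seen, had 2.51 and 2.87 FPKM in E14G, against 8.97 and 10.8 FPKM in E11G (-1.56 ± 0.11, adjusted p = 0.0149).

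Among the germ cell genes that were not called were the markers DDX4 and DAZL. DDX4, the germ cell helicase known in chicken as CVH, had 26.2 and 22.7 FPKM in E14G, against 22.6 and 17.6 FPKM in E11G (0.28 ± 0.14, adjusted p = 0.314). DAZL, a germ cell RNA-binding protein, had 56.2 and 48.7 FPKM in E14G, against 62.7 and 58.3 FPKM in E11G (-0.21 ± 0.11, adjusted p = 0.328). Against E11G replicate 2 alone the change of DDX4 was 0.45. In the whole list 0 rose and 11 did not pass. An unadjusted p under 0.05 was reached by 7 downward and 0 upward, beside 11.8% and 13.4% of all members. The list's median was -0.37, and -0.22 against E11G replicate 2 alone, while that over all members was 0.02. The 4 calls were reduced to 1, 3, 3 and 1 with E11G replicate 1, E11G replicate 2, E14G replicate 1 and E14G replicate 2 left out in turn.

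The PIWI pathway makes and uses piRNAs in germ cells, and its genes that could be matched by symbol had no call. These were 10 of 27 listed genes, and PIWIL2, TDRD1, TDRD9, MAEL and GPAT2 were among those not matched and not examined. PIWIL1, the PIWI protein called CIWI in chicken, had 28 and 26.6 FPKM in E14G, against 21.8 and 13.5 FPKM in E11G. The stages did not overlap, but the E11G libraries differed from each other by more than the closest libraries of the 2 stages, and the change was 0.64 ± 0.22 (adjusted p = 0.164). Against E11G replicate 2 alone the change of PIWIL1 was 0.96, and against E11G replicate 1 alone 0.31. Of the 10 members of the list, 0 were called, 3 had an unadjusted p under 0.05, all upward, beside 13.4% of all members, and 7 lay above E11G in both E14G libraries, beside 29.3% of all members. The median was 0.23, and 0.30 against E11G replicate 2 alone. Its most abundant members were HSP90AA1, a chaperone with 398 and 402 FPKM in E14G, against 349 and 296 FPKM in E11G, and WDR77, a cofactor of the methyltransferase PRMT5, with 87.8 and 75.5 FPKM in E14G, against 73.6 and 66.9 FPKM in E11G.

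Of 9 genes of retinoic acid handling, 3 fell. The meiosis genes listed with them, such as STRA8, SYCP3 and DMC1, had no transcript matched by symbol and were not examined. Retinoic acid triggers the entry of germ cells into meiosis in vertebrates, ALDH1A2 makes it, CYP26A1 degrades it and STRA6 imports its precursor retinol. STRA6 had 3.95 and 3.56 FPKM in E14G, against 15.8 and 13.1 FPKM in E11G (-1.70 ± 0.12, adjusted p = 0.0149). CYP26A1 had 1.12 and 1.52 FPKM in E14G, against 5.08 and 6.29 FPKM in E11G (-1.52 ± 0.15, adjusted p = 0.0193). ALDH1A2 had 70.9 and 62.5 FPKM in E14G, against 112 and 122 FPKM in E11G (-0.81 ± 0.09, adjusted p = 0.024). These 3, which include both the synthetic and the degrading enzyme, were the calls in the list of meiosis and retinoic acid genes. The other 6 members did not pass. Over the list, 4 members had an unadjusted p under 0.05 downward, the 3 calls among them, and 1 upward. The shares over all members were 11.8% and 13.4%. The upward one was RARA, a retinoic acid receptor with a change of 0.39 (limma adjusted p = 0.164) that was named after its values were seen. The median of the list was -0.28, and -0.16 against E11G replicate 2 alone, and of the 3 calls 0, 1, 1 and 0 remained with the libraries left out in the same order as above.

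The Sertoli cell genes showed no common direction. AMH, anti-Müllerian hormone, was the most abundant, with 3056 and 2906 FPKM in E14G, against 3797 and 4696 FPKM in E11G. It was lower in both E14G libraries and missed the threshold (-0.50 ± 0.12, adjusted p = 0.0882). SOX9, the Sertoli cell determinant, had 19 and 25.5 FPKM in E14G, against 15.9 and 13.7 FPKM in E11G (0.55 ± 0.20, adjusted p = 0.191). DMRT1, the Z-linked sex determinant of birds, had 68.4 and 64.1 FPKM in E14G, against 56.3 and 50.8 FPKM in E11G (0.30 ± 0.09, adjusted p = 0.121). PTGDS, prostaglandin D synthase, overlapped between the stages, with 8.78 and 22.2 FPKM in E14G, against 24.2 and 16.1 FPKM in E11G. The only call among the 17 members was GJA1, the gap junction protein connexin 43, with 75.9 and 83.9 FPKM in E14G, against 205 and 189 FPKM in E11G (-1.29 ± 0.12, adjusted p = 0.018).

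Among the uncalled Sertoli genes, 2 that were chosen after their values were seen came near a 2-fold difference. INHBB, the beta B subunit of inhibin and activin, had 36.3 and 55.3 FPKM in E14G, against 20.8 and 21.7 FPKM in E11G (1.04 ± 0.20, adjusted p = 0.0569). FSHR, the receptor of follicle-stimulating hormone, had 14.5 and 13.8 FPKM in E14G, against 9.95 and 4.57 FPKM in E11G (0.96 ± 0.33, adjusted p = 0.168), and its E11G libraries differed by more than 2-fold. Its change was 1.44 against E11G replicate 2 alone and 0.47 against E11G replicate 1 alone. Over the list, 6 members had an unadjusted p under 0.05 upward and 5 downward, beside 13.4% and 11.8% of all members. The median was 0.02. The single call was lost with each of the 4 libraries left out.

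Genes known from the ovary had 2 calls among 10 members, both falls, beside 2.33% of all genes with a symbol. Besides CYP19A1 and FOXL2, which only E11G replicate 1 held at 1 FPKM or more, the list held the estrogen receptor. ESR1, estrogen receptor alpha, had 10.5 and 10.7 FPKM in E14G, against 22.1 and 21.6 FPKM in E11G (-0.98 ± 0.08, adjusted p = 0.0149). Its levels were similar in the 2 E11G libraries. Of the 10 members 2 fell, ESR1 among them, 0 rose and 8 did not pass. An unadjusted p under 0.05 in limma was reached by 4 downward and 2 upward, beside 11.8% and 13.4% of all members. The median was -0.51 over both E11G libraries and -0.12 against E11G replicate 2 alone. The call for ESR1 was lost whichever single library was left out.

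Steroid and cholesterol synthesis had no call. CYP11A1, which starts steroid synthesis, had 145 and 137 FPKM in E14G, against 136 and 127 FPKM in E11G (0.10 ± 0.08, adjusted p = 0.52). CYP17A1, which makes androgen precursors, had 228 and 225 FPKM in E14G, against 217 and 110 FPKM in E11G (0.55 ± 0.31, adjusted p = 0.356). STAR, which moves cholesterol into mitochondria, had 18.2 and 16.7 FPKM in E14G, against 26.1 and 8.87 FPKM in E11G (0.18 ± 0.46, adjusted p = 0.863), so its direction depended on which E11G library it was set against. For CYP17A1 and STAR the difference between the E11G replicates exceeded that between the stages. Their changes were 1.04 and 0.90 against E11G replicate 2 alone, and 0.06 and -0.55 against E11G replicate 1 alone. AKR1B1, an aldo-keto reductase, was the most abundant of the 15 steroid genes, with 502 and 461 FPKM in E14G, against 437 and 422 FPKM in E11G. The list had a median of 0.18, and 0.25 against E11G replicate 2 alone.

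The cholesterol synthesis list also named genes of fatty acid synthesis, such as FASN, and regulators, such as SREBF1. Among its 15 members, 11 lay above E11G in both E14G libraries and 1 below, beside 29.3% and 24.7% of all members. An unadjusted p under 0.05 was reached by 8, all upward, beside 13.4% of all members in that direction. The most abundant members were ACAT2, with 175 and 148 FPKM in E14G, against 141 and 167 FPKM in E11G, and FDFT1, squalene synthase, with 124 and 117 FPKM in E14G, against 114 and 99 FPKM in E11G. The median was 0.18, and 0.28 against E11G replicate 2 alone, and 0 of the 15 passed in limma.

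Of 16 smooth muscle genes, which contractile peritubular cells and vessel walls express, 5 rose. ACTG2, the gamma actin of visceral smooth muscle, led with 35.8 and 49.4 FPKM in E14G, against 7.74 and 5.92 FPKM in E11G (2.47 ± 0.19, adjusted p = 0.0149). TAGLN, transgelin, had 11.8 and 22.1 FPKM in E14G, against 2.62 and 3.22 FPKM in E11G (2.13 ± 0.29, adjusted p = 0.0291). MYH11, smooth muscle myosin, had 2.5 and 3.35 FPKM in E14G, against 1.03 and 0.985 FPKM in E11G (0.96 ± 0.15, adjusted p = 0.039). In each of these the higher E11G library stayed below the lower E14G library. MYOCD, the coactivator that drives the smooth muscle program, had 7.98 and 8.96 FPKM in E14G, against 4.08 and 4.69 FPKM in E11G (0.81 ± 0.12, adjusted p = 0.0326), and the actin-binding CALD1 also rose.

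ACTA2, the most used smooth muscle actin marker, was abundant at both stages and not called, with 284 and 298 FPKM in E14G, against 265 and 249 FPKM in E11G (0.18 ± 0.07, adjusted p = 0.213). In all, 0 members fell and 11 did not pass. An unadjusted p under 0.05 was reached by 10 upward and 0 downward, beside 13.4% and 11.8% of all members. The median was 0.39, and 0.46 against E11G replicate 2 alone. Without E14G replicate 1 the calls for ACTG2 and TAGLN remained, and without any other single library 0 of the 5 did.

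Cell cycle genes were higher at E14 almost throughout the list. Of 53 members, 8 rose, 0 fell and 45 did not pass, while 47 lay above E11G in both E14G libraries and 4 below. Across all members, 29.3% lay above, and of all genes with a symbol 2.58% were called higher. GINS1, a subunit of the replicative helicase complex, had 18.4 and 23.1 FPKM in E14G, against 9.85 and 9.51 FPKM in E11G (1.02 ± 0.12, adjusted p = 0.0249). CDCA3, a trigger of mitotic entry, had 51.6 and 48.8 FPKM in E14G, against 26 and 25 FPKM in E11G (0.95 ± 0.08, adjusted p = 0.0149). CDC20, an activator of the anaphase-promoting complex, had 98.1 and 89.7 FPKM in E14G, against 52.6 and 49.5 FPKM in E11G (0.87 ± 0.10, adjusted p = 0.0239). In each, the replicates of a stage lay closer to each other than to the other stage.

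SMC2, a condensin subunit on chromosome Z, had 74.5 and 84.6 FPKM in E14G, against 47.4 and 44.9 FPKM in E11G (0.77 ± 0.10, adjusted p = 0.0273). The other 4 calls were KIF11, NDC80, MAD2L1 and CENPK, which serve the mitotic spindle and kinetochore. An unadjusted p under 0.05 was reached by 43 members upward and 3 downward, beside 13.4% and 11.8% of all members, and with the 4 gonad libraries only by 39 and 3. The list's median was 0.44, and 0.52 against E11G replicate 2 alone, where 7 of the 8 calls held at 1.5-fold. Its summed level was 2677 and 2698 FPKM in E14G, against 2128 and 1884 FPKM in E11G. Of the 8 calls, 1 remained without E14G replicate 1 and 0 without any of the other 3 libraries. CENPW, a kinetochore gene outside the list that was named after its values were seen, had 40 and 39.1 FPKM in E14G, against 17.1 and 15.8 FPKM in E11G (1.22 ± 0.09, adjusted p = 0.0149). MKI67 had no transcript that could be matched by symbol.

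**Figure D4:**
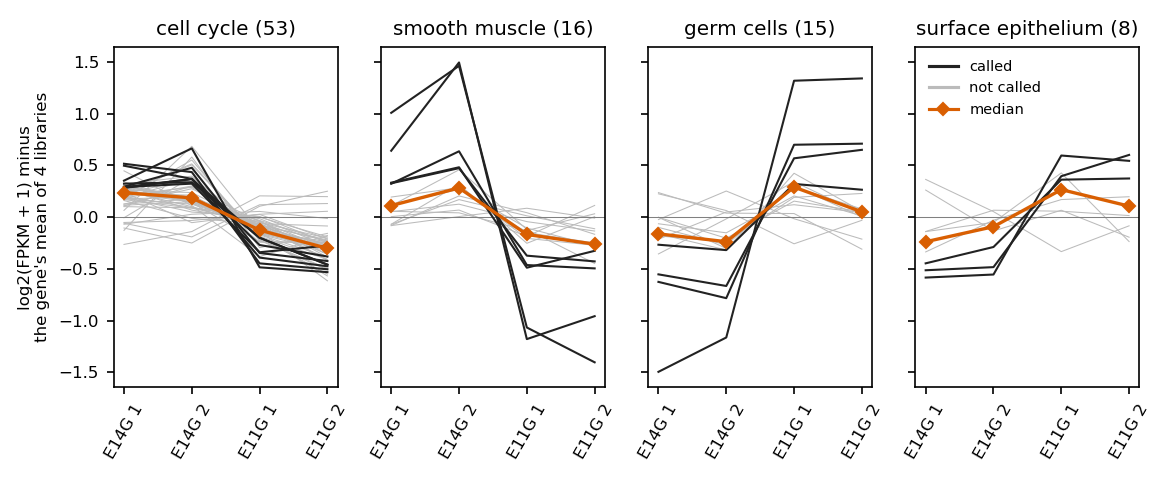
Members of 4 gene lists in each gonad library, as log2(FPKM + 1) minus the gene's mean over the 4 libraries, with the number of members in each title. Each line joins the values of 1 gene, black where it was called, and orange diamonds give the median. Cell cycle and smooth muscle medians lay above 0 in both E14G libraries and below 0 in both E11G libraries, and those of germ cell and surface epithelium genes the other way round.

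Globins of the early embryo fell, while those of later red cells were higher at E14 without a call. HBZ, the embryonic zeta (pi) chain, had 0.492 and 0.669 FPKM in E14G, against 4.75 and 5.71 FPKM in E11G (-1.98 ± 0.15, adjusted p = 0.0149). HBBR, the embryonic rho chain, had 1.01 and 1.45 FPKM in E14G, against 5.5 and 7.06 FPKM in E11G (-1.70 ± 0.16, adjusted p = 0.018). HBE had 3.05 and 2.18 FPKM in E14G, against 9.9 and 12.8 FPKM in E11G (-1.78 ± 0.17, adjusted p = 0.0192). Its row lies on an unordered scaffold of chromosome 1, at a locus of 3 transcripts among which reads may be split.

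The alpha chains that definitive red cells use were far more abundant and were not called. HBAD had 632 and 847 FPKM in E14G, against 490 and 569 FPKM in E11G (0.47 ± 0.16, adjusted p = 0.161). HBA1 had 1629 and 1859 FPKM in E14G, against 1253 and 1347 FPKM in E11G (0.42 ± 0.12, adjusted p = 0.117). HBE1, a globin of the beta family, had 5.9 and 7.01 FPKM in E14G, against 3.77 and 2.59 FPKM in E11G (0.85 ± 0.17, adjusted p = 0.0635). HBA1 and HBE1 were set beside the others after their values were seen. HBBA, the adult beta chain, was listed at 0 in all 4 libraries, beside these abundant alpha chains. Whether its reads were assigned to another transcript was not tested, so its 0 is not read as absence. Of 16 members of the red blood cell list 3 fell, 0 rose and 13 did not pass, with a median of 0.23, and of the 3 calls 0, 1, 2 and 0 remained with E11G replicate 1, E11G replicate 2, E14G replicate 1 and E14G replicate 2 left out.

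Immune genes showed 2 rises among 16 members and 0 falls. CD3D, a subunit of the T cell receptor complex, had 10.1 and 9.92 FPKM in E14G, against 3.41 and 3.34 FPKM in E11G (1.34 ± 0.09, adjusted p = 0.0149). LY86, which encodes MD-1 of macrophages and B cells, had 14.6 and 13.5 FPKM in E14G, against 6.81 and 7.62 FPKM in E11G (0.87 ± 0.10, adjusted p = 0.024). Both stages were tightly grouped in these genes, whereas the pan-leukocyte gene PTPRC stayed between 2.71 and 3.05 FPKM in all 4 libraries. The median of the list was 0.03. Without E11G replicate 1 or E14G replicate 2 neither gene was called.

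In the endothelium list, KDR, the main receptor of vascular endothelial growth factor, was the only call among 14 members. It had 9.4 and 10.8 FPKM in E14G, against 33.2 and 29.7 FPKM in E11G (-1.55 ± 0.12, adjusted p = 0.0149), with every E14G value below both E11G values. The vessel cadherin CDH5 had 31.2 and 28.1 FPKM in E14G, against 38.8 and 41.2 FPKM in E11G and was not called, and the median was -0.08. The KDR call was lost without E11G replicate 1 (adjusted p = 0.0643) and without E14G replicate 2.

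Genes of the surface epithelium fell in 3 of 8 members, with 0 rises. KRT7, a simple-epithelium keratin, had 38.8 and 39.6 FPKM in E14G, against 89 and 85.9 FPKM in E11G (-1.14 ± 0.06, adjusted p = 0.0132), and it kept its call without E11G replicate 1 (adjusted p = 0.0487). CLDN1, a tight junction protein, had 47.7 and 48.7 FPKM in E14G, against 90.3 and 104 FPKM in E11G (-1.0 ± 0.09, adjusted p = 0.016). LHX9, a homeobox factor needed for gonad formation in mice, had 50.6 and 56.5 FPKM in E14G, against 89.3 and 90 FPKM in E11G (-0.74 ± 0.08, adjusted p = 0.0236). KRT7 was nearly equal between the replicates of each stage, while CLDN1 differed more in E11G and LHX9 in E14G. The median of the list was -0.28, and of the 3 calls 1, 2, 1 and 0 remained with the libraries left out in the order used for the globins.

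The mesonephros, the embryonic kidney, adjoins the gonad, and its list had the lowest median, -0.76, or -0.39 against E11G replicate 2 alone. Its summed level was 55.9 and 70.6 FPKM in E14G, against 117 and 91.5 FPKM in E11G. SLC34A2, a phosphate transporter, had 1.84 and 1.92 FPKM in E14G, against 7.66 and 8.46 FPKM in E11G (-1.65 ± 0.08, adjusted p = 0.0125), and was called without E11G replicate 1 (adjusted p = 0.0367). WNT11 (-1.47 ± 0.16, adjusted p = 0.0226) and PODXL (-0.83 ± 0.10, adjusted p = 0.0261), a podocalyxin also present on germ cells, fell as well, and 9 of the 12 members did not pass. Of 5 defining kidney markers only PAX2 could be matched, and it lay between 2.13 and 2.68 FPKM in all 4 libraries. The part of kidney tissue in these falls was not tested. Of the 3 calls, only that for SLC34A2 remained without E11G replicate 1, and 0 remained without E14G replicate 2.

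Of 14 nerve and glia genes 2 rose and 1 fell, and of 6 adrenal and sympathetic genes 0 were called. Besides the rises of GRP and NPY, NEFM, a neurofilament, had 1.53 and 2.21 FPKM in E14G, against 8.11 and 5.82 FPKM in E11G (-1.47 ± 0.20, adjusted p = 0.0291). The other 11 nerve members did not pass, and the median was -0.04, but 0.26 against E11G replicate 2 alone. Of the 3 calls 1, GRP, remained without E11G replicate 1, and 0 remained without E14G replicate 1 or E14G replicate 2. HAND2, a transcription factor of sympathetic neurons and the most abundant adrenal and sympathetic member, had 4.39 and 5.12 FPKM in E14G, against 7.74 and 5.26 FPKM in E11G. CYP21A1, an enzyme of adrenal steroid synthesis, had 3.17 and 5.7 FPKM in E14G, against 3.17 and 2.61 FPKM in E11G, and the median of this list was -0.36, and -0.10 against E11G replicate 2 alone.

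Large falls outside these groups included muscle, hormone and transport genes. MYOZ2, a Z-disc protein of striated muscle, had 1.75 and 2.05 FPKM in E14G, against 18.6 and 15.4 FPKM in E11G (-2.63 ± 0.13, adjusted p = 0.0115). CXCL14, a chemokine, had 1.41 and 1.64 FPKM in E14G, against 15.7 and 10.7 FPKM in E11G (-2.47 ± 0.18, adjusted p = 0.0149). SLC1A3, a glutamate transporter on chromosome Z, had 0.307 and 0.428 FPKM in E14G, against 5.98 and 4.08 FPKM in E11G (-2.12 ± 0.17, adjusted p = 0.0149). All 3 kept their call without E11G replicate 1 (adjusted p = 0.03, 0.0403 and 0.0403) and lost it without E14G replicate 2, as SLC1A3 also did without E14G replicate 1. SLN, a regulator of the muscle calcium pump (-1.97 ± 0.33, adjusted p = 0.0475), OSTN, a secreted musclin (-1.80 ± 0.16, adjusted p = 0.0169), and TTR, a thyroid hormone and retinol carrier (-1.77 ± 0.15, adjusted p = 0.0149), completed the 12 largest falls and were not called without E11G replicate 1.

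Extracellular matrix genes rose in 3 of 35 members, all collagens, and fell in 0. COL12A1 had 84.2 and 88.2 FPKM in E14G, against 36.6 and 39.5 FPKM in E11G (1.16 ± 0.07, adjusted p = 0.0149). COL6A2 had 91.3 and 102 FPKM in E14G, against 52.8 and 55.2 FPKM in E11G (0.82 ± 0.08, adjusted p = 0.0198), and COL6A1 had 94.7 and 102 FPKM in E14G, against 57.6 and 57.7 FPKM in E11G (0.76 ± 0.07, adjusted p = 0.0194). COL6A1 and COL6A2 encode partner chains of collagen VI and lie next to each other on chromosome 7. The list's median was 0.06, COL1A1 could not be matched, and 0, 1, 2 and 0 of the 3 calls remained with the libraries left out in the order used for the globins.

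Each of the signalling families held calls, most of them in several members. In the Wnt pathway, 3 of 30 members rose and 3 fell. WIF1, a secreted Wnt inhibitor, had 9.72 and 9.67 FPKM in E14G, against 4.24 and 3.13 FPKM in E11G (1.20 ± 0.14, adjusted p = 0.0249), and the ligand WNT5B rose by 0.97 ± 0.12 (adjusted p = 0.0257) beside RSPO3. The ligand WNT11 had 0.713 and 0.978 FPKM in E14G, against 3.94 and 4.25 FPKM in E11G, and the receptors FZD10 and FZD4 fell as well. In the Hedgehog pathway, which Sertoli cells use to signal to interstitial cells, 2 of 5 members rose. GLI1, a target and effector, had 2.97 and 3.03 FPKM in E14G, against 0.957 and 0.561 FPKM in E11G (1.19 ± 0.14, adjusted p = 0.024). PTCH1, the receptor and also a target, rose by 0.62 ± 0.11 (adjusted p = 0.0484), under 1.5-fold against E11G replicate 2. RSPO3 alone of these 8 genes stayed called without E11G replicate 1, and 0 stayed called without E14G replicate 2.

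In the insulin-like growth factor list 3 of 8 members rose. IGFBP2 had 39.4 and 47.2 FPKM in E14G, against 23.4 and 18.9 FPKM in E11G (1.0 ± 0.13, adjusted p = 0.0293), IGFBP4 rose by 0.79 ± 0.10 (adjusted p = 0.0264) and the growth factor IGF1 by 0.72 ± 0.10 (adjusted p = 0.0284). Among TGF-beta, BMP and activin genes 3 of 29 fell and 0 rose. ID2, a BMP target, had 62.4 and 65.8 FPKM in E14G, against 119 and 132 FPKM in E11G (-0.96 ± 0.08, adjusted p = 0.0149). TGFB2 and ID3 fell by 0.50 and 0.49, both under 1.5-fold against E11G replicate 2. Among fibroblast growth factor genes 3 of 20 fell and 0 rose, namely SPRY1, a feedback inhibitor, FGFR2 and FGF12, by 0.52 to 0.68. The fall of FGF12 was also under 1.5-fold against E11G replicate 2. In the Notch list HES5, a Notch target, fell by 0.91 ± 0.10 (adjusted p = 0.0231), the only call among 7. None of these 10 calls remained, whichever single library was left out.

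Chromatin, HOX, stress and ribosomal protein genes gave 1 call in all. Of 20 chromatin genes, 1 was called, DNMT3B, and it remained called without E11G replicate 1 (adjusted p = 0.0274) but not without E14G replicate 2. Of 14 HOX genes 0 were called, and the median was -0.18. In both E14G libraries 0 of them lay above and 7 below E11G, beside 29.3% and 24.7% of all members. HOXA7 had 18.2 and 18 FPKM in E14G, against 27.4 and 24.7 FPKM in E11G (-0.50 ± 0.11, adjusted p = 0.0759), while HOXA10 overlapped, with 23.4 and 17.3 FPKM in E14G, against 20.2 and 24.7 FPKM in E11G. Of 20 immediate early and stress genes 0 were called, and the most abundant, HSPA8, was at 609 and 561 FPKM in E14G, against 619 and 553 FPKM in E11G.

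The 45 ribosomal protein genes had a median of 0.03, 0 calls and overlapping stages in 25, beside 9351 of all 20316 members. RPL26L1, which is among the most abundant, had 2832 and 2328 FPKM in E14G, against 2926 and 3175 FPKM in E11G. RPS27A stood apart in 1 library, with 1036 and 1009 FPKM in E14G, against 241 and 886 FPKM in E11G. It was chosen after its values were seen, and its locus holds a second transcript among which reads may be split.

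**Figure D5:**
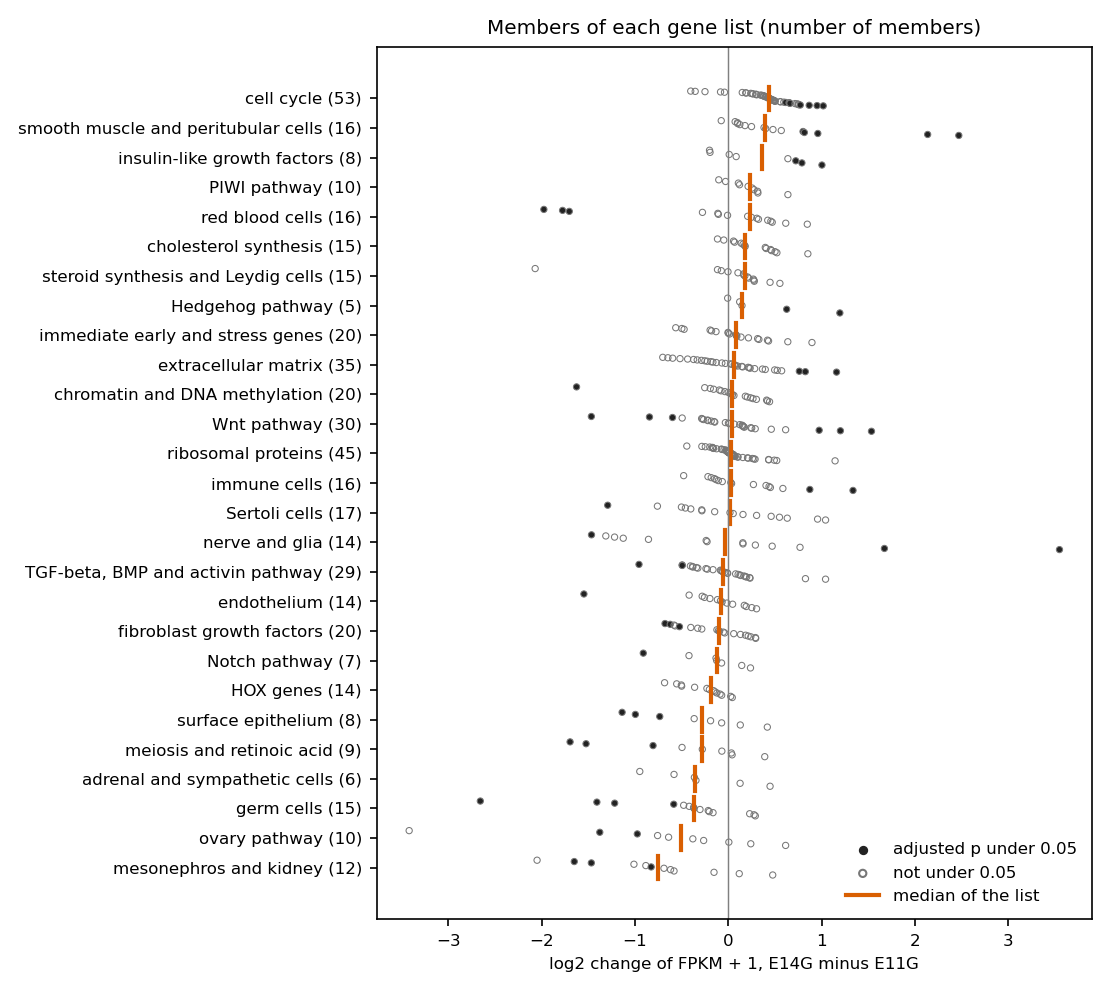
Change of each member of the 27 gene lists, E14G minus E11G on the log2(FPKM + 1) scale, with filled points where the adjusted p was under 0.05 and an orange bar at the median. Medians ran between 0.44 for the cell cycle and -0.76 for the mesonephros and kidney list, and the ribosomal protein genes centred on 0.03.

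The calls were spread over the annotation classes and chromosomes. Of 5400 members with a RefSeq identifier 264 (4.89%) were called, of 10487 with an Ensembl identifier 341 (3.25%), and of 4429 that the authors' assembly found without a known identifier 242 (5.46%). Among the calls, assembled transcripts had 196 falls and 46 rises, while RefSeq transcripts had 123 falls and 141 rises. The median change over all members was -0.06 for assembled and 0.06 for RefSeq transcripts. Assembled transcripts were also low, with a median mean level of 2 FPKM, against 17 FPKM for RefSeq transcripts. On chromosome Z, which males carry in 2 copies, 48 of 1029 members (4.66%) were called, 23 higher and 25 lower in E14G, beside 771 of 17855 (4.32%) on the autosomes. The median change was 0.06 on chromosome Z and 0.02 on the autosomes, and against E11G replicate 2 alone both were 0.03.

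Members that overlapped piRNA clusters were called about as often as the rest. The study called these clusters, genomic regions dense in piRNAs, from oxidized small RNA of E11 and E14 gonads of other breeds than the RNA-seq. Of the 390 members that overlapped by at least 1 base a cluster called in both libraries of a stage, 17 (4.36%) were called, 7 higher and 10 lower in E14G. They included RTN4, a reticulon of the endoplasmic reticulum, with 47.4 and 42.8 FPKM in E14G, against 26.8 and 28.9 FPKM in E11G (0.67, adjusted p = 0.0386), the only member of the 17 with a gene symbol. In addition, 4 of them were assembled transcripts of the same locus on chromosome 28, 146198 to 196685, which fell together and are not independent. Loci were given as the table has them, and 6301 members shared their locus with at least 1 other member. Among the named genes these were POU5F3, STRA6, HBZ, HBE, TTR, NDP, MIR6664, CDCA3, STAR, FSHR, FGF12, HOXA10, RPS27A, RPL26L1, DEFB4A, HNRNPKL, RAD9A and RTN4, for which reads may have been split between transcripts.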

How the data were processed

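Values were the FPKM per transcript that the authors deposited in 1 table, made, by the submitters' processing notes and the study's methods, with TopHat2 and Cufflinks version 2.2.1 on galGal5 with RefSeq and Ensembl annotation, and scaled between libraries by Cuffnorm. RefSeq accessions were paired with symbols of the GRCg7b annotation, where 6731 of 7467 matched, and 179 Ensembl or other transcripts through the study's tables. The authors' piRNA cluster lists of the gonad small RNA libraries were used for positions only. Limma version 3.58.1 in R 4.3.3 was fitted with a mean-variance trend to log2(FPKM + 1) of the 6 RNA-seq libraries, for transcripts at 1 FPKM or more in at least 1 library, and tested on simulated data. Depth limits the low values, whose counts are unknown.

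Named genes are the 12 largest rises and falls with a symbol that were called and held at 1.5-fold against E11G replicate 2. They also include the 4 largest called changes of each list (or, with none, its 2 most abundant members) and fixed markers. The 3 most abundant members placed on chromosome W or its scaffolds were added, and exceptions are said in the text. List genes were matched by current symbol only. The members and lists were chosen with earlier results of these data known. Promoter sequences were not used here, and some genes that this rule picks are not reported here. Alternatives changed the libraries, pseudocount, filter, scaling and trend.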

Additional observations from a re-analysis of the deposited data

How the results depend on the processing

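The 13 alternatives were run for 109 named genes, and the 74 of them that were called kept their direction wherever an alternative gave a value. This is no further evidence, since the stages of every called gene did not overlap. A change of libraries, pseudocount, filter or trend therefore could not reverse them. Against 847 calls (339 higher, 508 lower in E14G), the 4 gonad libraries only gave 2 (1 and 1), and without E11G replicate 1 as well, an alternative chosen after seeing the data, 0 (0 and 0). That 0 stood beside 3089 members with an unadjusted p under 0.05. Of these 74 calls, 12, 25, 29 and 3 remained without E11G replicate 1, E11G replicate 2, E14G replicate 1 and E14G replicate 2, and 6 named genes that were not called passed without E11G replicate 2. Leaving out 1 library at a time gave 22 to 274 calls, 9 to 111 higher and 8 to 173 lower. Without a filter on low values there were 504 (185 and 319), and with a mean of at least 5 FPKM, which tests fewer transcripts, 409 with 176 lower. That filter moved the share of calls that were higher to 57%, against 40% in the fit of all members. Both pseudocounts, both rescalings and the fit without a trend gave 592 to 1170 calls. Except where construction shows it, the cause was not tested. Requiring 2-fold against E11G replicate 2 left 285 of the 729 calls. With clusters covering at least 0.5 of a transcript's span, the called members were 7 of 139 (5.04%) in place of 17 of 390 (4.36%), and with clusters called in all 4 gonad libraries 13 of 243 (5.35%).

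Genes that were not called and changed sign did so near 0 or through 1 library. Over the fits that left out 1 library, the change ran between -0.0548 and 0.188 for ACAT2, -0.0827 and 0.0807 for HSPA8, -0.35 and 0.0636 for HOXA10, -0.14 and 0.00209 for RAD9A, -1.41 and 0.13 for FOXL2, -6.84 and 0.00559 for CYP19A1, -0.55 and 0.90 for STAR, -1.08 and 0.16 for PTGDS and -2.87 and 0.25 for STMN2. In the 4 gonad libraries without E11G replicate 1 it was -0.0542 for ACAT2, 0.0807 for HSPA8, 0.13 for FOXL2, 0.00559 for CYP19A1 and 0.25 for STMN2, and quantile normalization gave -0.0307 for ACAT2. No paired analysis was possible, because the labels link no E11G library to an E14G library. The RNA-seq columns carry no replicate numbers, and those used here follow the order of the columns.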

Other observations

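Among the calls outside the lists were 5 genes of antimicrobial or leukocyte-related proteins, which were picked because they rose and do not stand for a group. CATH1, a cathelicidin like CATH2, had 8.24 and 11.8 FPKM in E14G, against 3.71 and 4.01 FPKM in E11G. DEFB4A, a beta-defensin, had 43.8 and 51.2 FPKM in E14G, against 15.6 and 20.7 FPKM in E11G, and AvBD7, another beta-defensin, had 35.9 and 35.4 FPKM in E14G, against 14.6 and 19.1 FPKM in E11G. RSFR, a leukocyte ribonuclease, had 8.82 and 7.42 FPKM in E14G, against 3.17 and 3.11 FPKM in E11G. LECT2, a chemotactic factor, had 32.9 and 43 FPKM in E14G, against 16.3 and 18.2 FPKM in E11G. All 5 were called in limma with adjusted p between 0.0206 and 0.0388, and their changes were between 1.05 and 1.35. None of the 5 kept its call without E11G replicate 1 or without E14G replicate 2. The general leukocyte genes PTPRC, CSF1R and SPI1 were not called.

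Striated muscle genes went both ways. MYH7, a slow myosin heavy chain, had 0.98 and 0.949 FPKM in E14G, against 5.13 and 3.77 FPKM in E11G (-1.46 ± 0.15, limma adjusted p = 0.0205), next to the falls of MYOZ2 and SLN. MYL3, a myosin light chain, had 4.12 and 5.24 FPKM in E14G, against 1.44 and 1.37 FPKM in E11G (1.23 ± 0.20, limma adjusted p = 0.0463). Neither was called without E11G replicate 1 or without E14G replicate 2. They were also named after their values were seen.

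E14G replicate 2 differed from the other libraries in more members than any other gonad library. It lay at least 4-fold above all 3 others in 54 members and at least 4-fold below them in 104, on the FPKM + 1 scale. The same counts were 19 and 9 in E14G replicate 1, 46 and 18 in E11G replicate 1, and 22 and 8 in E11G replicate 2.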
